A study of Mus musculus with 9 samples.

Results

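The genes described here are 9 enzymes and binding proteins of DNA methylation in mouse bone marrow progenitors: the methyltransferases Dnmt1, Dnmt3a and Dnmt3b, the dioxygenases Tet1, Tet2 and Tet3, and Uhrf1, Tdg and Mbd2. They were chosen by name, as all rows of the deposited expression table that carry one of these symbols, and the transcripts of each gene were summed. All 9 symbols were found, among 16537 genes in the table, and all 9 passed the filter on low counts. RNA was sequenced in 9 libraries of sorted bone marrow cells, 3 per group, all from the inbred strain FVB/NJ. Hematopoietic progenitor cells (HPC) were of wild type genotype and taken at postnatal day 42. The other groups were leukemic progenitors (LP) of genotype PML-RAR, in the phase labelled early (early LP) or median (median LP). PML-RAR is the fusion of the promyelocytic leukemia protein with a retinoic acid receptor that is found in acute promyelocytic leukemia. No source used here gives the promoter that drives PML-RAR, the sorting markers, the age of the leukemic mice or whether animals were pooled, so leukemia, age and the mix of cells sorted cannot be told apart.

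DNA methylation in mammals sits mostly on the cytosine of CpG dinucleotides. DNMT3A and DNMT3B set new marks, and DNMT1, guided to replicated DNA by UHRF1, copies them to the new strand. TET enzymes oxidise methylcytosine, TDG excises the oxidised bases, and MBD2 reads the methylated CpG and recruits the NuRD repressor complex. DNMT3A and TET2 are among the genes most often mutated in human myeloid leukemia.

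In leukemic progenitors the genes of new methylation fell, Dnmt1 rose slightly, Uhrf1 was not called, and the TET genes moved in different directions. Tet1 fell from 19.1 ± 4.64 CPM in HPC to 0.452 ± 0.0320 in early LP and 0.274 ± 0.0582 in median LP (mean ± SD, n = 3 libraries each). Dnmt3a and Dnmt3b fell to between 30.1 and 36.3% of their HPC level, and the short Dnmt3a transcript was nearly absent. Tet2 rose, from 38.7 ± 8.81 CPM to 67.4 ± 9.51 and 78.0 ± 10.1. CPM is the count of a gene per 1 M (mega) counts of its library, scaled between libraries by TMM (trimmed mean of M-values). A gene is called when its Benjamini-Hochberg adjusted p is under 0.05, two-sided, in edgeR's quasi-likelihood test over 12837 genes.

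Between early LP and HPC, 7 of the 9 genes were called, 2 higher and 5 lower, against a background of 73.2% of all genes tested (35.3% higher and 37.9% lower). Between median LP and HPC, 6 were called, 2 higher and 4 lower, against 73.8% of all genes (36.0% higher and 37.7% lower). The share of the 9 genes called was therefore close to that of all genes in both. The median log2 difference of the 9 was -0.32 and -0.22, beside -0.04 and -0.04 over all genes tested. In 6 and 7 of the 9 genes the 3 libraries of one group lay outside the range of the other, beside 74.7% and 75.7% of all genes. Both comparisons use the same 3 HPC libraries and are not independent of each other. Between median and early LP, 0 of the 9 genes were called by edgeR, beside 2.48% of all genes, and 0 had an unadjusted p under 0.05, beside 16.5%. In 2 of them the libraries of the phases did not overlap, beside 26.1%. DESeq2 and limma also called 0 of the 9.

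**Figure D1:**
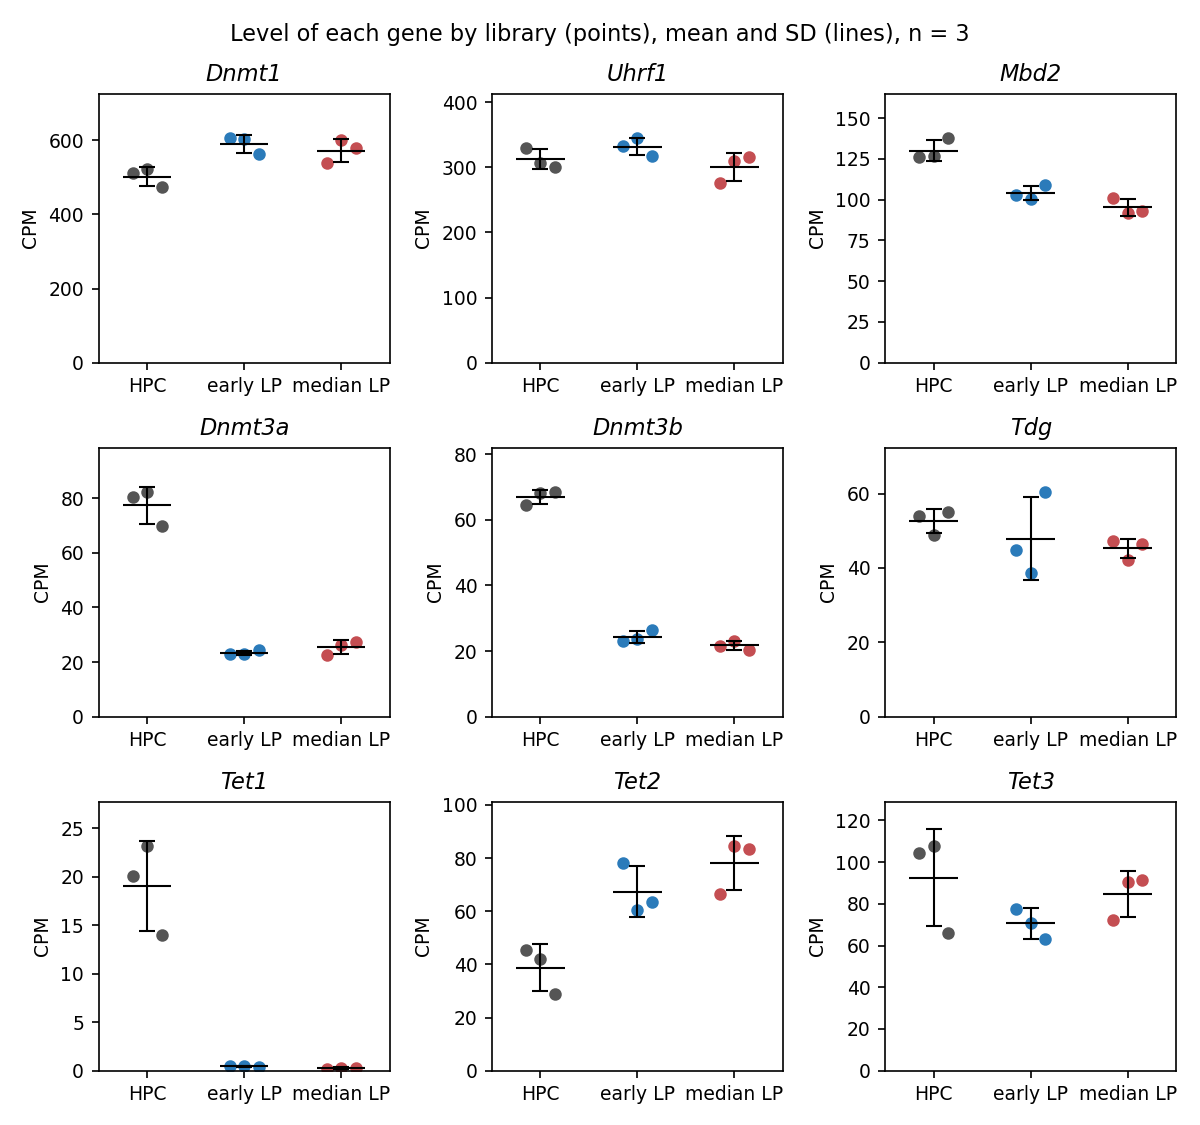
CPM of the 9 genes (vertical axes, each from 0) in the 3 HPC, 3 early LP and 3 median LP libraries, with 1 point per library and lines for the mean and SD. Dnmt3a, Dnmt3b and Tet1 were higher in all 3 HPC libraries than in all 6 LP libraries, Tet2 was lower, and HPC 3 had the lowest HPC value of Tet1, Tet2 and Tet3.

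**Figure D2:**
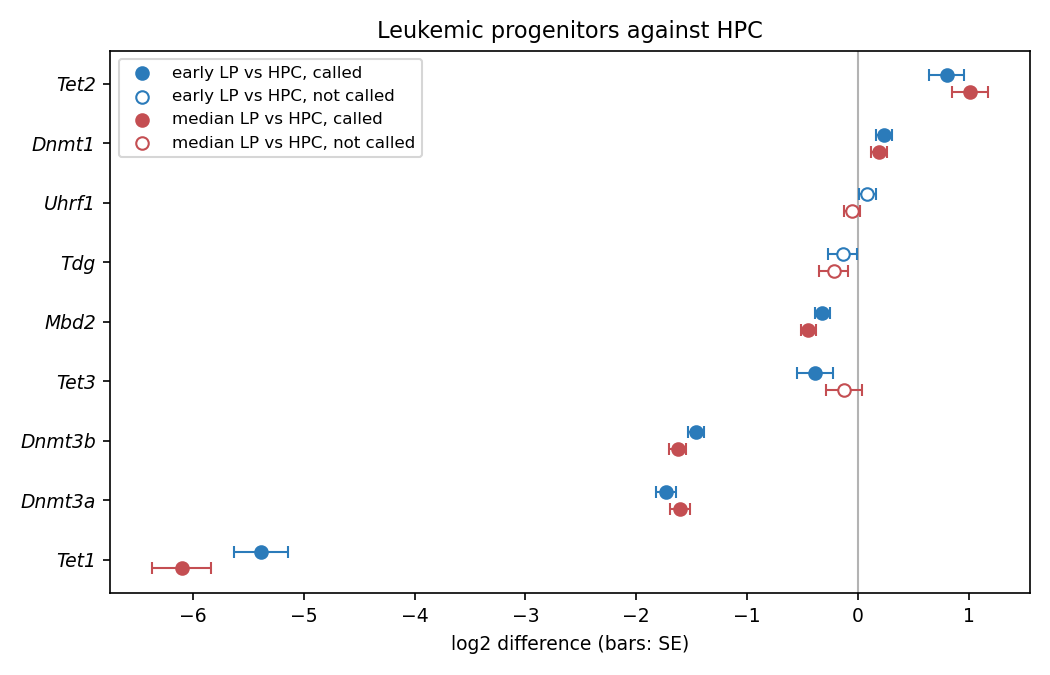
Log2 difference from HPC (horizontal axis, bars are SE) of each gene in early LP and median LP, with filled points for called genes. The values run from -6.10 for Tet1 in median LP to 1.01 for Tet2 in median LP, and Uhrf1 and Tdg were not called in either group.

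The libraries held 20.6 to 28.4 M recovered fragments, and log2 CPM correlated across genes at r = 0.995 to 0.998 within groups and at 0.907 to 0.921 between HPC and LP. The labels name no separate mice or cultures within a group, so each p-value rests on a spread between libraries that may be technical. The HPC libraries held markers of several lineages that the LP libraries held at lower levels. The summed level of 9 stem and progenitor markers was 924 to 1021 CPM in HPC, 259 to 260 in early LP and 242 to 257 in median LP. It came largely from Kit in LP, with Cd34 at 272, 3.49 and 1.44 CPM. Ly6a alone had a higher mean in LP, at 1.11, 1.83 and 1.43 CPM. Erythroid markers (7 genes) summed to 2676 to 3146, 12.7 to 19.5 and 138 to 210 CPM. The sum in median LP was mostly Hba-a1, at means of 26.3, 3.76 and 156 CPM, while Car1 was at 1577, 6.09 and 1.67. Only Hba-a1 and Hbb-b1, the latter under 1 CPM, had a higher mean in median LP than in HPC. The 4 megakaryocyte markers summed to 99.0 to 127, 1.67 to 2.83 and 1.14 to 1.93 CPM. Promyelocyte markers (5 genes) summed higher in LP than in HPC, at 13069 to 14716, 34562 to 39550 and 28367 to 30353 CPM. Prtn3 alone had a lower mean in median LP than in HPC (1197, 1347 and 1045 CPM). Neutrophil markers (6 genes) summed to 2763 to 5059, 8931 to 9209 and 11102 to 12301 CPM. S100a8 and S100a9 alone were higher on average in LP, and the means of the other 4 were lower, among them Ltf at 445, 168 and 54.8 CPM and Ngp at 663, 239 and 145. Monocyte markers (5 genes) summed to 634 to 789, 6314 to 6632 and 5752 to 6115 CPM, of which Ly6c2 took the most in LP. Ccr2 was also higher in LP, while the means of Irf8 (121, 4.11 and 4.74 CPM), Csf1r (57.9, 17.1 and 21.7) and Ctss (8.25, 2.61 and 4.38) were lower. The sum of the basophil and mast cell markers (5 genes) fell from 217 to 249 CPM in HPC to 32.0 to 37.1 and 26.9 to 30.2. Mcpt8 alone had a higher mean in LP, at 12.8, 28.7 and 22.1 CPM, and took most of the LP sum. The sum of 3 dendritic markers fell from 23.2 to 31.1 CPM to 1.58 to 2.43 and 4.26 to 4.70. Of these, Siglech had its highest mean in median LP (0.425, 0.0702 and 0.880 CPM). B cell markers (6 genes) summed to 65.4 to 86.5, 0.958 to 1.42 and 1.54 to 3.34 CPM, with Pax5 at 0 in every HPC and early LP library. T and NK markers (5 genes) stood at 140 to 159, 145 to 159 and 107 to 128 CPM, nearly all from Nkg7, with Cd3e and Cd8a at 0 in every HPC library and Cd3g and Cd8a at 0 in every early LP library. The 4 stromal and endothelial markers summed to 46.4 to 54.6, 14.4 to 19.0 and 14.2 to 15.7 CPM, mostly Pecam1. Pecam1 alone had a lower mean in both LP groups than in HPC. The means of Col1a1 (0.135, 2.95 and 2.69 CPM) and Cdh5 (0.027, 0.084 and 0.215) were higher in both. Cxcl12 was lower on average in early LP only (0.259, 0.0423 and 0.273 CPM). The part of these cell types in the results below was not tested, and fewer cells of a type and less RNA per cell cannot be told apart in bulk RNA.

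The maintenance genes changed little. Dnmt1 (gene ID 13433, chr9:20907206-20959888 on mm10) encodes the enzyme that methylates the new strand after replication. Its level was 511, 522 and 473 CPM in the 3 HPC libraries, 605, 603 and 562 in early LP, and 538, 600 and 578 in median LP. Every LP library lay above every HPC library. The rise in early LP was 0.23 on the log2 scale (SE 0.07, edgeR adjusted p = 0.00993), or 1.18-fold, and that in median LP was 0.19 (SE 0.07, edgeR adjusted p = 0.0286), or 1.14-fold. The early LP call was kept in all 23 settings, the main fit included, with log2 differences from 0.16 to 0.28. The median LP call was lost in 8 of 23, where edgeR, limma or DESeq2 gave adjusted p-values from 0.00199 to 0.166 over all 23. It was lost without HPC 3 (0.15), without early LP 3 (0.18), without median LP 2 (0.16) and without median LP 3 (0.18), values being log2 differences. With all libraries of the compared groups kept, it was lost with upper quartile scaling (0.11) and with the length trend taken out (0.0975). The same held with the most abundant transcript only (0.12) and with only those groups fitted (0.19). The table lists 3 Dnmt1 transcripts, and the main pair differ by 3 bases in length (5370 and 5367 bases), so how reads divided between them cannot be resolved.

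Uhrf1 (gene ID 18140, chr17:56303337-56323486) encodes the protein that binds hemimethylated CpG and brings DNMT1 to it. Its level was 330, 307 and 300 CPM in HPC, 332, 345 and 318 in early LP, and 276, 310 and 315 in median LP. The groups overlapped in both comparisons with HPC. The log2 difference was 0.09 (SE 0.07, edgeR adjusted p = 0.304) in early LP and -0.06 (SE 0.07, adjusted p = 0.501) in median LP. Neither was called in any of the 23 settings. Median LP libraries all lay below early LP libraries, by a log2 difference of -0.14 (SE 0.07, edgeR adjusted p = 0.360). The main Uhrf1 transcript, NM_010931, made up 81.7% ± 2.03 of the gene's FPKM in HPC, 77.6% ± 1.54 in early and 77.2% ± 5.81 in median LP (SD, n = 3).

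The new-methylation enzymes fell in both phases. Dnmt3a (gene ID 13435, chr12:3806980-3914443) was at 80.4, 82.1 and 69.7 CPM in HPC, 22.8, 22.8 and 24.3 in early LP, and 22.4, 26.3 and 27.5 in median LP. The lowest HPC library stood far above the highest LP library. The log2 difference was -1.73 (SE 0.09, edgeR adjusted p = 6.45e-09) in early LP and -1.61 (SE 0.09, adjusted p = 1.17e-08) in median LP, a level 3.33-fold and 3.05-fold lower. Dnmt3b (gene ID 13436, chr2:153649449-153687730) was at 64.5, 68.2 and 68.4 CPM in HPC, 23.0, 23.5 and 26.5 in early LP, and 21.5, 23.2 and 20.4 in median LP. Its groups were as far apart. Dnmt3b differed by a log2 value of -1.46 (SE 0.07, edgeR adjusted p = 5.93e-09) in early LP and -1.63 (SE 0.08, adjusted p = 2.37e-09) in median LP, a level 2.75-fold and 3.09-fold lower. All 4 calls were kept in the 23 settings. Counted from the most abundant Dnmt3a transcript only, the Dnmt3a difference was smaller, at -0.63 in early LP and -0.46 in median LP.

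The 2 main Dnmt3a transcripts start at different promoters. The long form, NM_007872, matches a GENCODE transcript of 23 exons that encodes 908 residues and starts at position 3807030 of chromosome 12. The short form, NM_153743, known as Dnmt3a2, encodes 689 residues from 19 exons, of which 16 are shared with the long form. It starts at position 3891744, inside intron 6 of the long form, and lacks the N-terminal part of the protein. Both forms keep the catalytic domain. RefSeq sequence (assembly GRCm38.p6, which has the mm10 coordinates) is printed for both starts, since the short form fell much more than the long form. Each runs 5′ to 3′ on the plus strand from 250 bases before to 50 bases after the RefSeq start, with every CpG in capitals. The long form window is chr12:3806730-3807029. It is set on a RefSeq start at position 3806980, where the deposited table also begins the gene, and ends just before the GENCODE start given above. The short form window is chr12:3891494-3891793, set on position 3891744.
Dnmt3a long form start: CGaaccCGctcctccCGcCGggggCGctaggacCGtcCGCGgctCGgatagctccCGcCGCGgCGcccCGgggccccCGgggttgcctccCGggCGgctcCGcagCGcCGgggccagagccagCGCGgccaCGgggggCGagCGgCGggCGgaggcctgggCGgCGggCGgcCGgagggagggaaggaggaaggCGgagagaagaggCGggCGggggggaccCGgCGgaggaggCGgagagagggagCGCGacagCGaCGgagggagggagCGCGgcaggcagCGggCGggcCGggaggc
Dnmt3a short form start: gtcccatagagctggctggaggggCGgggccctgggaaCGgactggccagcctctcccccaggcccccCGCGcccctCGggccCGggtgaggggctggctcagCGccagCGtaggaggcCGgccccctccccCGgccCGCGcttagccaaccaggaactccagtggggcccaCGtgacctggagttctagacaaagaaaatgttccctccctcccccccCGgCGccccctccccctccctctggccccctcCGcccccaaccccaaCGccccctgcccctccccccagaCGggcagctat
The long form window holds 46 CpG dinucleotides and the short form window 18, where the median of 32851 RefSeq promoters of the same length was 7 (quartiles 3 and 20).

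The short Dnmt3a transcript was nearly lost in leukemic progenitors. NM_153743 was at 42.0, 42.6 and 43.1 CPM in HPC, 0, 2.59 and 0 in early LP, and 0.083, 0.22 and 0 in median LP. Only early LP 2 held more than a trace, with 71.6 of the 72.0 fragments recovered over the 3 early LP libraries. The 3 HPC libraries held 3358 recovered fragments and the 3 median LP libraries 7.57. Its log2 difference was -5.61 (SE 1.04, edgeR adjusted p = 0.00147) in early LP and -8.65 (SE 1.35, adjusted p = 0.000510) in median LP. Without early LP 2 the remaining early LP libraries held 0.413 fragments, under the floor of 3 over both, and the short form was at least 553-fold lower than in HPC.

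The long form fell less. NM_007872 was at 37.4, 39.4 and 27.0 CPM in HPC, 22.7, 20.2 and 24.3 in early LP, and 22.4, 26.1 and 27.5 in median LP. HPC 3 lay within the range of median LP. For the long form it was -0.63 (SE 0.15, edgeR adjusted p = 0.00620) in early LP and -0.45 (SE 0.15, adjusted p = 0.0284) in median LP. The early LP call was kept in the 11 transcript settings, the main fit included. The median LP call was lost without HPC 1 (-0.39), HPC 2 (-0.32), median LP 1 (-0.36) and median LP 2 (-0.47), values being log2 differences. Its edgeR adjusted p-values ran from 0.00225 to 0.123 over the 11 settings.

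As a share of Dnmt3a FPKM (fragments per kilobase of transcript per 1 M fragments), the short form made up 55.2, 54.8 and 64.4% in HPC, 0.009, 12.6 and 0.089% in early LP, and 0.418, 0.996 and 0% in median LP. The ranges did not overlap, and the exact two-sided permutation test gave p = 0.1 for both, the smallest that 3 against 3 libraries allow. Tested against the rest of its gene with edgeR's diffSpliceDGE, an alternative chosen after the data were seen, the short form was lower in early LP (adjusted p = 0.00809) and in median LP (adjusted p = 0.000653). That test called 4.30% and 4.25% of 6019 transcripts. Both forms share most of their sequence, so the split of reads between them is an estimate of the authors' quantification.

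**Figure D3:**
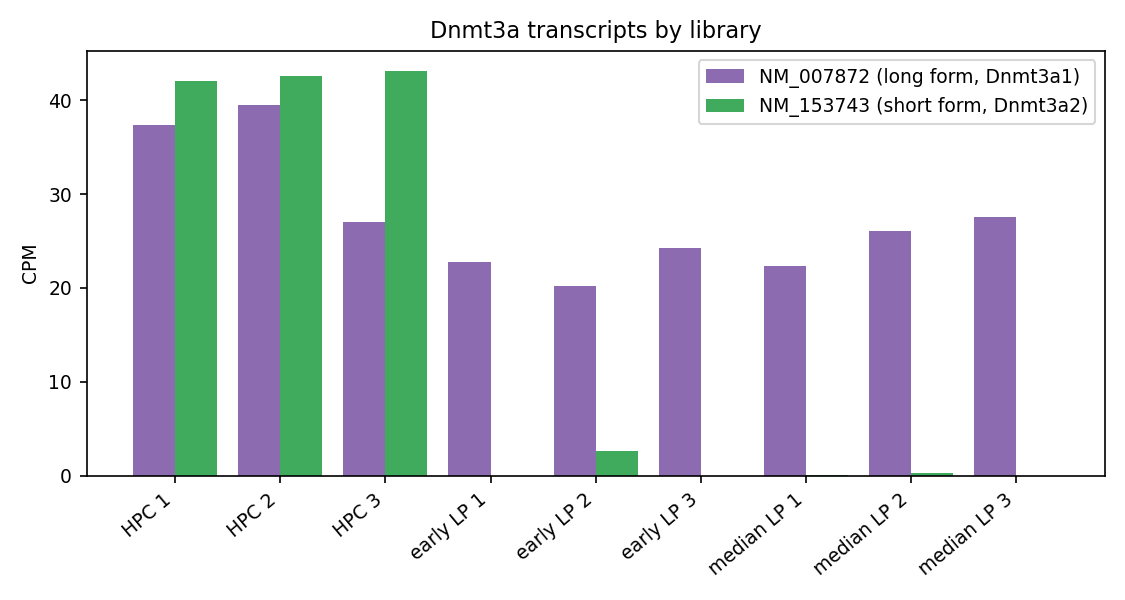
CPM of the long and short Dnmt3a transcripts (vertical axis from 0) in each of the 9 libraries. The short form stood at 42.0 to 43.1 CPM in HPC and at 2.59 CPM or less in every LP library, while the long form stood at 20.2 to 39.4 CPM throughout.

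The Dnmt3b transcripts fell together. NM_001271747, the most abundant, was at 31.2, 33.5 and 35.8 CPM in HPC, 11.7, 13.0 and 18.3 in early LP, and 10.1, 13.1 and 9.36 in median LP. It made up 51.3% ± 1.92 of the gene's FPKM in HPC, 59.96% ± 9.68 in early and 51.2% ± 5.93 in median LP (SD, n = 3), and the exact permutation test gave p = 0.2 and p = 1 against HPC. The log2 differences in early and median LP were -1.54 and -1.56 for NM_001122997 and -2.08 and -1.72 for NM_010068. NM_010068 made up 23.4% ± 0.311 of Dnmt3b FPKM in HPC, 15.6% ± 8.37 in early and 22.3% ± 8.20 in median LP, with p = 0.1 and p = 0.8 in the same exact test. NM_001271747 and NM_010068 match GENCODE transcripts that encode 776 residues, and NM_001122997 matches a longer form of 860. The catalytic activity of these forms was not measured. Over all 9 genes, 17 of the 22 transcripts were tested and the other 5 were too low. Of these 17, 9 were called in early LP and 10 in median LP, beside 60.8% and 60.9% of all transcripts tested, and 0 between the phases, beside 0.464%.
The Dnmt3b start is printed for comparison (RefSeq, GRCm38.p6, chr2:153649199-153649498, plus strand, CpG in capitals), and holds 30 CpG dinucleotides.
Dnmt3b start: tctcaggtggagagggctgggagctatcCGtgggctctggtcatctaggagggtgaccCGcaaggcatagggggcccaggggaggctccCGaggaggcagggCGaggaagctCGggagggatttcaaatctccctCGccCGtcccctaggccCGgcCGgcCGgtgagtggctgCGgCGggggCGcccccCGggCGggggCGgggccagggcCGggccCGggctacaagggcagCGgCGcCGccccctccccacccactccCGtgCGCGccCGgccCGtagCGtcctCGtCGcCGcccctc

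Of the oxidation enzymes, Tet1 fell most. Tet1 (gene ID 52463, chr10:62804570-62880014) was at 20.1, 23.2 and 14.04 CPM in HPC, 0.479, 0.460 and 0.416 in early LP, and 0.207, 0.308 and 0.308 in median LP. Even the lowest HPC library was far above all 6 LP libraries. These levels rest on 1491 recovered fragments in HPC, 30.0 in early and 20.0 in median LP. The log2 difference was -5.39 (SE 0.24, edgeR adjusted p = 2.00e-09) in early LP and -6.10 (SE 0.27, adjusted p = 1.35e-09) in median LP, a mean level 42.3-fold and 69.7-fold lower. With limma on log2(FPKM + 1), a pseudocount near the level of the gene in HPC, the differences were -1.07 and -1.08. The calls of Tet1 in early and median LP were kept in all 23 settings. In median LP every library was below every early LP library, at a log2 difference of -0.72 (SE 0.45, edgeR adjusted p = 0.458).

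Tet2 rose. Tet2 (gene ID 214133, chr3:133463677-133544390) was at 45.5, 41.9 and 28.7 CPM in HPC, 78.2, 60.3 and 63.6 in early LP, and 66.3, 84.4 and 83.3 in median LP. No LP library reached down to the highest HPC library. Against HPC the log2 difference was 0.80 (SE 0.16, edgeR adjusted p = 0.000736) in early LP, or 1.74-fold, and 1.01 (SE 0.16, adjusted p = 0.000117) in median LP, or 2.02-fold. Without HPC 3, the lowest library, the differences were 0.62 and 0.83. Both calls were kept in all 23 settings.

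Tet3 (gene ID 194388, chr6:83362374-83441678) was at 104, 108 and 66.0 CPM in HPC, 77.7, 70.8 and 63.3 in early LP, and 72.1, 90.7 and 91.4 in median LP. HPC 3 lay within the LP range and the other HPC libraries above it. Against HPC the Tet3 log2 difference was -0.39 (SE 0.16, edgeR adjusted p = 0.0483) in early LP and -0.13 (SE 0.16, adjusted p = 0.493) in median LP. The early LP call was lost in 9 of 23 settings, with adjusted p-values from 2.66e-06 to 0.216. Among single libraries it was lost without HPC 1 (-0.28), HPC 2 (-0.25), early LP 2 (-0.39), early LP 3 (-0.32), median LP 2 (-0.39) or median LP 3 (-0.39), and it was larger without HPC 3 (-0.59), all as log2 differences. In median LP a call was gained without HPC 3 (-0.32), and adjusted p-values ran from 2.05e-05 to 0.959.

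Transcript length moved with these values. The Tet2 and Tet3 transcripts are 9181 and 10906 bases long and the main Tet1 transcript 14082, and libraries differed in how log2 CPM changed per doubling of transcript length. Relative to the mean of its own group this slope was -0.13 in HPC 3, 0.05 in HPC 1 and 0.07 in HPC 2, and between -0.05 and 0.04 in the LP libraries. With the length trend of each library taken out, the log2 difference was 0.70 and 0.78 for Tet2 and -0.51 and -0.41 for Tet3, in early and median LP. Each of these 4 was called. That correction also takes out length trends that differ between the groups. An alternative chosen after the data were seen used only the within-group slope, as a covariate. It gave 0.82 and 1.03 for Tet2 and -0.36 and -0.10 for Tet3. There Tet3 in median LP was not called (edgeR adjusted p = 0.0527), so its call depended on the correction.

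RefSeq sequence at the start of Tet2 is printed because this gene rose (GRCm38.p6, minus strand, 5′ to 3′, CpG in capitals). The window is chr3:133544341-133544640 and holds 57 CpG dinucleotides. The RefSeq window of Tet1 is left out of the motif search below, since it is set on the start of neither transcript measured. Its start lies 7310 bases from the nearest measured start. A Dnmt1 window whose start lies 6909 bases from the nearest was kept in the search.
Tet2 start: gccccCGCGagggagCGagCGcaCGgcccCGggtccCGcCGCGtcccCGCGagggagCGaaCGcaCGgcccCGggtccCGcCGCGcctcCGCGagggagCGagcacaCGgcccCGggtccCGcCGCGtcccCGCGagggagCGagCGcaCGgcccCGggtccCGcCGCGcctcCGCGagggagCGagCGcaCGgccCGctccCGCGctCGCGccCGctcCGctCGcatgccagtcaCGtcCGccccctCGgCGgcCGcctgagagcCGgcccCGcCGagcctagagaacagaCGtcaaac
Of 32851 promoters, 99.8% hold fewer CpG than the Tet2 window. Short motifs were searched on both strands of 12 windows of 7 genes, Mbd2 having no entry. AGGTCA, the element bound by retinoid receptors, had 1 match in the Dnmt3a short form window and 1 in a Uhrf1 window, and is found in 16.3% of all promoters. GGGCGG, the GC box, had 6 matches in the Dnmt3a long form window, 2 in the short form window, 4 in Dnmt3b and 1 in Tet2. Further matches lay in windows of Tet3, Dnmt1 and Uhrf1 and in another Dnmt3a window, and it is found in 35.7% of all promoters. CCAAT had no match in the Dnmt3a, Dnmt3b and Tet2 windows and 5 in a Dnmt1 window upstream of the starts measured. It also matched in windows of Tet3, Tdg and Uhrf1 and in another Dnmt1 window, and is found in 37.4%. The E2F motifs TTTCCCGC and TTTGGCGC had 1 match, in a Dnmt1 window, and are found in 1.56%. AGATAA, the GATA motif, had none in the 12 windows and is found in 11.2%. The Tet1 window left out held 1 match to AGGTCA, 1 to GGGCGG and 0 to the other motifs.

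Within each enzyme family the shares of the members differed between HPC and LP. Summed FPKM, which sets genes of different length on one scale, was 88.5 ± 2.22 in HPC, 85.6 ± 2.38 in early and 81.8 ± 1.80 in median LP for Dnmt1, Dnmt3a and Dnmt3b. For the 3 Tet genes it was 12.3 ± 2.55, 11.4 ± 1.05 and 13.1 ± 1.32 (SD, n = 3). Dnmt1 made up 76.3 to 77.4% of methyltransferase FPKM in HPC, 91.3 to 92.8% in early LP and 92.4 to 92.6% in median LP. Dnmt3b went from 14.4 to 16.1% down to 5.09 to 6.26% and 4.70 to 5.24%, and Dnmt3a from 7.57 to 8.17% down to 2.12 to 2.40% and 2.30 to 2.66%. Tet3 made up 62.5 to 65.2% of Tet FPKM in HPC and 49.4 to 53.4% in early LP and 51.5 to 52.7% in median LP. Tet2 went from 24.95 to 27.7% up to 46.3 to 50.4% and 47.2 to 48.4%, and Tet1 from 8.71 to 9.85% down to 0.211 to 0.255% and 0.0967 to 0.131%. None of these shares overlapped between HPC and either LP group. Each gave p = 0.1 in the exact two-sided permutation test, the smallest possible with 3 libraries a group, and 0.14 after adjustment over 21 tests. Within the 3 HPC libraries the Tet shares spread little although HPC 3 had the lowest level of each Tet gene.

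**Figure D4:**
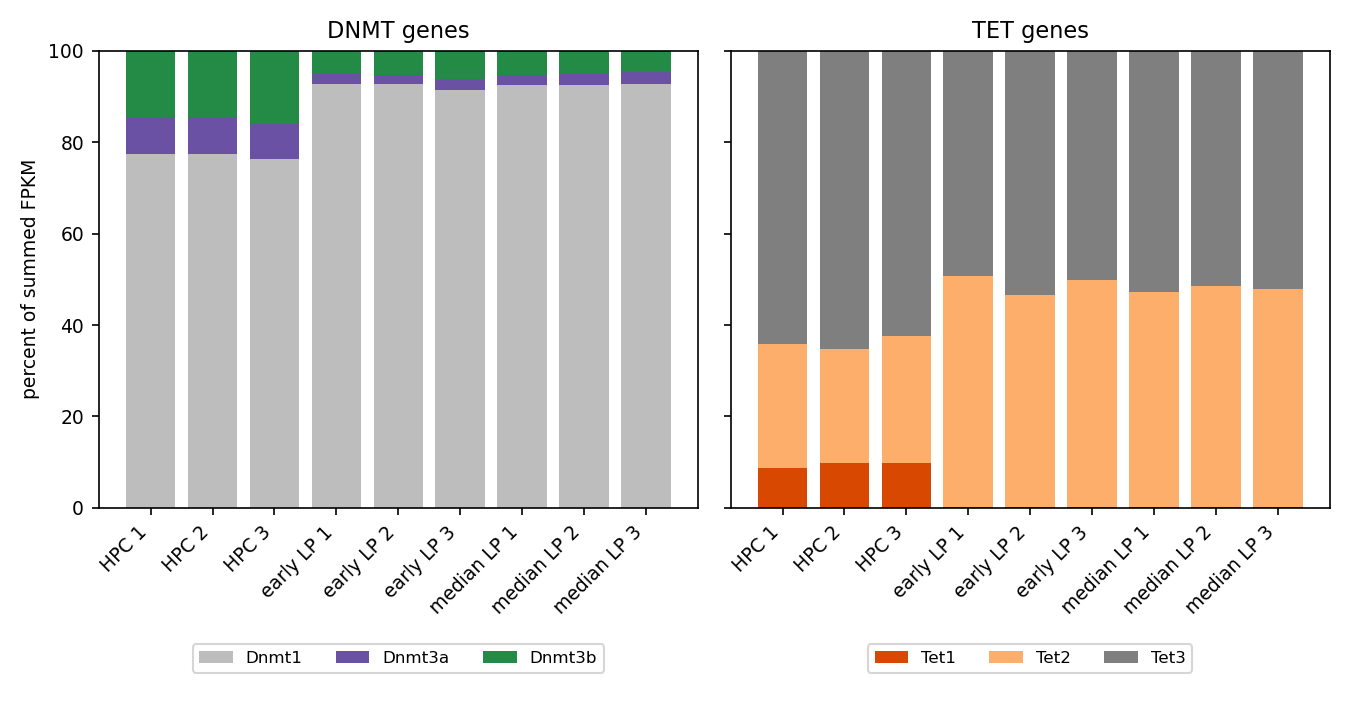
Share of summed FPKM (vertical axis, percent) of each gene in the DNMT family and in the TET family, as stacked bars for the 9 libraries. Dnmt1 took 76.3 to 77.4% of the DNMT sum in HPC and over 91% in every LP library, and Tet2 took at most 27.7% of the TET sum in HPC and at least 46.3% in every LP library.

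By FPKM the order of the 9 genes in HPC was Uhrf1 (76.5 ± 2.71), Mbd2 (69.4 ± 3.65), Dnmt1 (68.1 ± 2.03), Tdg (14.8 ± 1.32), Dnmt3b (13.3 ± 0.738), Tet3 (7.89 ± 1.77), Dnmt3a (6.99 ± 0.352), Tet2 (3.26 ± 0.586) and Tet1 (1.16 ± 0.229). Libraries of Mbd2 and Dnmt1, of Tdg and Dnmt3b, and of Tet3 and Dnmt3a overlapped in range, and these differences were not tested. Within each HPC library Tdg was above Dnmt3b, while the order of the other pairs varied. In both LP groups Tet2 stood above Dnmt3b and Dnmt3a, at 5.55 ± 0.685 FPKM in early LP and 6.28 ± 0.692 in median LP. Dnmt3b stood at 4.72 ± 0.464 and 4.10 ± 0.280 and Dnmt3a at 1.90 ± 0.102 and 2.02 ± 0.142. In early LP, Tet3 overlapped Tet2 and Tet2 overlapped Dnmt3b. In median LP, of all neighbours in the order, only Tet3 and Tet2 overlapped.

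Tdg (gene ID 21665, chr10:82629838-82690650) encodes the glycosylase that removes formylcytosine and carboxylcytosine. It was at 53.9, 49.0 and 55.2 CPM in HPC, 44.8, 38.6 and 60.3 in early LP, and 47.2, 42.3 and 46.4 in median LP. Early LP 3 was the highest of all 9 libraries and early LP 2 the lowest. For Tdg the log2 difference was -0.14 (SE 0.13, edgeR adjusted p = 0.361) in early LP and -0.22 (SE 0.13, adjusted p = 0.151) in median LP. All median LP libraries lay below all HPC libraries. Without early LP 3 both differences were called, at -0.34 and -0.23. With only HPC and median LP fitted, the median LP difference was also called (-0.22, edgeR adjusted p = 0.0264). Adjusted p-values over 23 settings ran from 0.00603 to 0.992 in early LP and from 0.0256 to 0.347 in median LP. The table places Gm9855, a thymine DNA glycosylase pseudogene, in the same locus, and it was at 73.1, 78.8 and 79.2 CPM in HPC, 62.3, 65.2 and 51.8 in early LP, and 72.9, 67.7 and 59.4 in median LP. It was lowest in early LP 3, where Tdg was highest. The sum of both was 127, 128 and 134 CPM in HPC, 107, 104 and 112 in early LP, and 120, 110 and 106 in median LP, with no overlap between HPC and LP. How reads were divided between them is not known, and the Tdg level is uncertain.

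Mbd2 (gene ID 17191, chr18:70568292-70626131) was at 126, 127 and 138 CPM in HPC, 103, 101 and 109 in early LP, and 101, 91.7 and 93.1 in median LP. All HPC libraries lay above all LP libraries. The log2 difference was -0.32 (SE 0.07, edgeR adjusted p = 0.000907) in early LP and -0.45 (SE 0.07, adjusted p = 7.06e-05) in median LP, a level 1.25-fold and 1.37-fold lower. Both calls were kept in all 23 settings.

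The pathway around the 9 genes was described from 9 lists, whose counts are read against 73.2% and 73.8% of all genes called. A pair of values in parentheses after a gene gives its log2 differences from HPC in early and median LP. Of 6 partners of maintenance methylation tested, 5 fell and 0 rose in early LP, and 6 fell in median LP. Cdca7, which with the remodeller Hells opens chromatin for methylation, fell from 248 CPM to 126 and 132 (-0.97 and -0.91). Uhrf2, a relative of Uhrf1, fell (-0.53 and -0.38), as did Hells (-0.36 and -0.31) and the replication clamp Pcna (-0.24 and -0.34). The S phase list moved both ways: of 22 genes, 6 rose and 9 fell in early LP, and 4 rose and 12 fell in median LP. Ccne1, the cyclin of S phase entry, fell (-1.51 and -1.71), and so did E2f2 (-1.23 and -1.61). Cdc45, a part of the replicative helicase, rose (0.85 and 0.75), while Top2a fell (-0.70 and -0.56).

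Of 6 partners of new methylation, 2 rose and 2 fell in early LP and 1 rose and 2 fell in median LP. Dnmt3l, the catalytically inactive relative that stimulates DNMT3A and DNMT3B in germ cells, rose. It was at 0.126, 0.0837 and 0.273 CPM in HPC, 10.97, 9.28 and 11.4 in early LP, and 10.1, 11.3 and 11.2 in median LP. These values rest on 13.0 recovered fragments in HPC, 691 in early and 797 in median LP. Dnmt3l was higher by 5.97 on the log2 scale (SE 0.24, edgeR adjusted p = 8.32e-10) in early LP and by 6.004 (SE 0.24, adjusted p = 7.30e-10) in median LP. It was called in all 23 settings of both. The mean was 65.5-fold and 67.3-fold that of HPC. The table places Dnmt3l (chr10:78030022-78063615) in one locus with Aire. The imprint-protecting factors Zfp57 (-3.66 and -3.36, from a mean of 1.66 CPM) and Trim28 (-0.59 and -0.73) fell. Trdmt1, a tRNA methyltransferase once named Dnmt2, rose by 0.24 in early LP and differed by 0.15 in median LP (edgeR adjusted p = 0.0371 and 0.181).

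Of 9 other methyl-CpG readers, 5 fell and 1 rose in early LP and 3 fell and 1 rose in median LP. Zbtb4 (-1.03 and -1.32) and Mbd6 (-0.40 and -0.40) fell. Zbtb33 (Kaiso) fell by 0.34 in early LP and differed by -0.14 in median LP (edgeR adjusted p = 0.225). Of 12 NuRD genes, 8 fell and 2 rose in early LP and 8 fell and 0 rose in median LP. Chd3, one of its remodelling ATPases, went from 54.7 ± 3.77 CPM in HPC to 1.14 ± 0.0656 in early LP and 1.25 ± 0.288 in median LP (SD, n = 3), with log2 differences of -5.58 and -5.45. The subunit genes Mta1 (-1.003 and -1.08), Mta3 (-0.997 and -1.14) and Hdac2 (-0.68 and -0.62) fell. Mbd3 stands in both of these lists.

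Of 6 TET partners tested, 2 fell and 1 rose in early LP and 3 fell and 1 rose in median LP. Cxxc5, a CXXC-domain protein that binds TET2, fell from 21.8 CPM to 3.79 and 4.61 (-2.52 and -2.24). Ogt, the O-GlcNAc transferase that binds TET proteins, fell (-0.66 and -0.53). The acetyltransferase gene Ep300 rose (0.52 and 0.66). Vprbp, part of a ubiquitin ligase that modifies TET proteins, differed by -0.21 in early LP (edgeR adjusted p = 0.0610) and fell by 0.22 in median LP (adjusted p = 0.0495). Of 15 base excision and deamination genes, 5 rose and 7 fell in both phases. Gadd45b, named in active demethylation and in stress response, rose from 9.43 CPM to 69.8 and 87.9 (2.89 and 3.22). The glycosylase gene Neil3 (1.29 and 1.35) and the cytidine deaminase gene Apobec1 (1.00 and 1.24) rose, while Parp1 fell (-0.85 and -0.86).

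TET enzymes need 2-oxoglutarate, and methyltransferases need S-adenosylmethionine. Of 12 genes of 2-oxoglutarate supply and use, 3 rose and 8 fell in early LP and 2 rose and 8 fell in median LP. Idh1, which makes 2-oxoglutarate in the cytosol, rose from 78.1 CPM to 249 and 257 (1.67 and 1.72). The citric acid cycle genes Idh3b (-0.75 and -0.76) and Sdha (-0.69 and -0.78) fell. Of 7 methyl donor genes tested, 2 rose and 4 fell in both phases. Methionine synthase, Mtr (-0.94 and -0.82), Ahcy, which clears S-adenosylhomocysteine (-0.70 and -0.90), and its relative Ahcyl1 (-0.45 and -0.30) fell. Mat2b, a regulatory subunit of S-adenosylmethionine synthesis, rose (0.46 and 0.54).

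**Figure D5:**
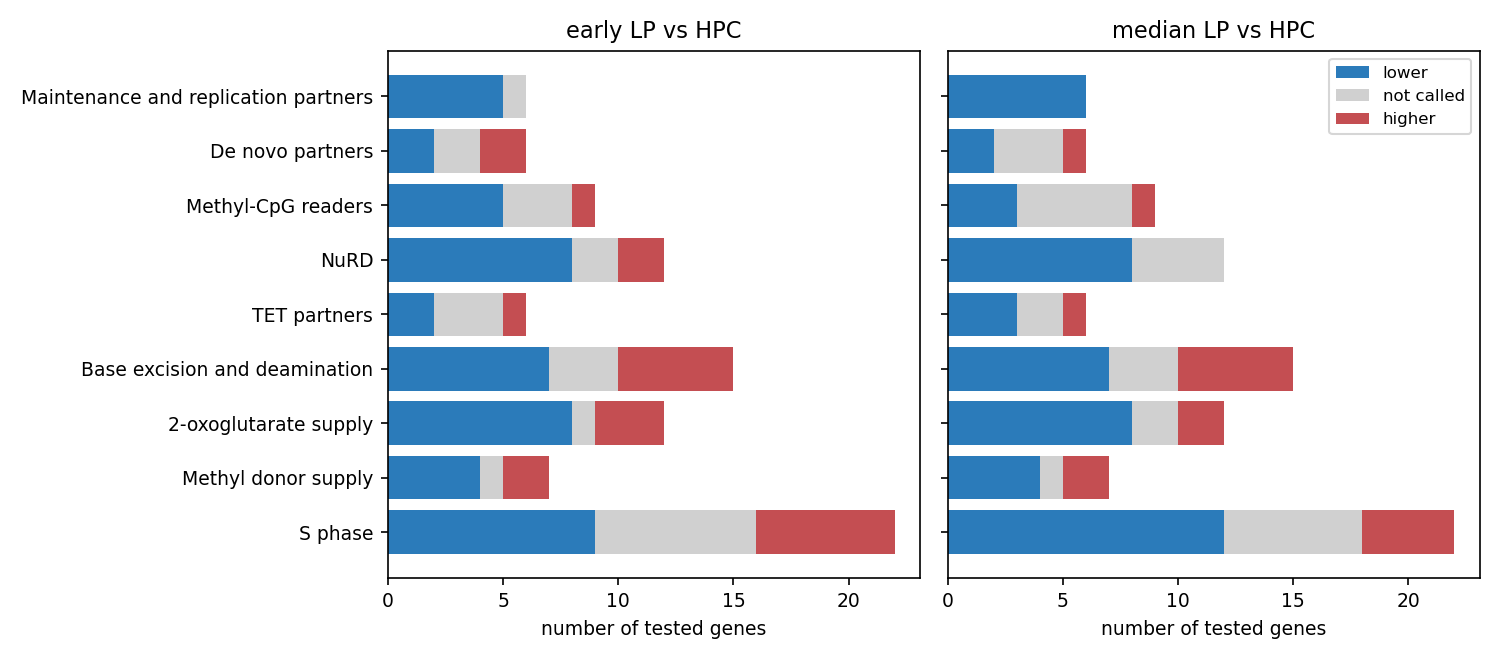
Number of tested genes of each of the 9 lists (horizontal axis) that were lower, not called or higher in early LP and median LP against HPC. In the list of maintenance partners no gene was higher, and the S phase list had genes in each class.

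Between the 2 leukemic phases, 5 of the 93 listed genes tested were called, beside 2.48% of all genes. Gadd45b was higher in median LP by 0.33 (edgeR adjusted p = 0.0135) and Smug1 by 0.35 (adjusted p = 0.0466). Lower in median LP were Gadd45g (log2 difference -1.41, adjusted p = 0.0246), Mcm7 (-0.27, adjusted p = 0.0429) and Gins2 (-0.33, adjusted p = 0.0497). Smug1, Gadd45g, Mcm7 and Gins2 lie outside the rule for named genes and were chosen after their values were seen.

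For each of the 9 genes the 2 most similar of the other tested genes were sought by Pearson's r of log2 CPM over the 9 libraries, which share the split between HPC and LP. Dnmt3b was nearest to Zfp428 (r = 0.999) and Itga2b (0.999), and Dnmt3a to Dnajb3 (0.998) and Gm3002 (0.998). Tet1 was nearest to Zfp507 (0.999) and Tex9 (0.999), and Tet2 to Kif13a (0.998) and Cflar (0.994). Mbd2 was nearest to Lsm2 (0.995) and Paics (0.994), Dnmt1 to Top3a (0.978) and Tnrc18 (0.973), and Tet3 to Taf1 (0.971) and Epm2aip1 (0.966). Tdg was nearest to 2010107E04Rik (0.945) and Thyn1 (0.896), and Uhrf1 to Trak1 (0.913) and Tln1 (0.908). Such values are common for genes that differ between HPC and LP: r was above 0.9 for 3034 genes with Dnmt3a, 3142 with Tet1 and 1239 with Tet2, and for 2 with Uhrf1 and 1 with Tdg.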

How the data were processed

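Per the labels' protocols, Trizol RNA went into TruSeq libraries. The submitters' processing notes name TopHat2 2.0.6 and mm10. No source used here names the quantifying program, the annotation release or the use of strand. The deposited table holds FPKM and estimated counts per RefSeq transcript, both computed by the authors and unpooled, and transcript lengths, per the file headers. The deposited estimated counts were not whole. They were summed by gene symbol, rounded and tested with edgeR 4.0.16 in R 4.3.3: quasi-likelihood, TMM, the filterByExpr filter (12837 genes kept, 3700 left out), all 9 libraries in 1 fit with no covariate. Transcripts were tested the same way. Low deposited counts came in multiples of a step that each library has (90.1 to 91.5% whole within 0.05), and division by it gave the recovered fragments and the recovered depth. Since the table holds both units, the count test was the main one. Shares of FPKM were compared by exact permutation. Alternatives used DESeq2 1.42.0, limma 3.58.1 on log2(FPKM + 0.1), other scalings and filters, single libraries left out, and a correction for transcript length. The steps were tested on simulated data. Coordinates are those of the deposited table on mm10, counted from 1. Transcript structures come from GENCODE by accession (22 of 22 matched). The genes, lists and markers were chosen with earlier results of these data known. The text names all 9 genes, of each list up to 4 genes by smallest adjusted p in early LP against HPC, and the 2 genes most similar to each of the 9. Dppa3, Wt1, Mat1a and Bhmt were not matched in the table, and Cxxc4, Neil2, Apobec2 and Gnmt were among those too low to test. Some list genes that this rule names are not reported here.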

Additional observations from a re-analysis of the deposited data

How the results depend on the processing

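When single libraries were left out, 6 or 7 of the 9 genes were called in early LP and 5 or 6 in median LP. With the within-group length slope of the libraries as a covariate, chosen after the data were seen, 1 of 9 was called between the phases: Tet3, at 0.26 (adjusted p = 0.00445, range 0.00445 to 0.756 over 23). Values that changed sign were all uncalled. Leaving out single libraries, Tdg in early LP ran from -0.34 to 0.0015 (without early LP 2), and between phases from -0.22 to 0.1154 (without early LP 3). In median LP, Uhrf1 ran from -0.10 to 0.0075 (without HPC 1) and was 0.0062 without median LP 1, and Tet3 ran from -0.32 to 0.0107 (without HPC 2). Between phases, Dnmt3a was -0.0205 with the length trend taken out, and its short form ran from -4.19 to 4.33 (without early LP 2), where the other early LP libraries hold almost no fragments.

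All genes called between phases numbered 318, and 558 with DESeq2, 206 with limma on log2(FPKM + 0.1), 194 without its filter, 605 with only those groups fitted, 624 with the length trend taken out and 1283 with the slope covariate. Leaving out libraries gave 105 to 687: 687 without HPC 3, and 181, 105 and 128 without early LP 1, 2 and 3, and 151, 122 and 194 without median LP 1, 2 and 3. The causes were not tested. No label says that replicate numbers pair the libraries. Same-numbered deviations from the group means correlated at -0.165 to 0.091, and 0 of 9 libraries correlated best with their own number. With so few libraries a group, these values cannot decide whether libraries were paired. With the replicate block, 6, 6 and 0 of the 9 genes and 192 genes between phases were called, and the Tet3 call in early LP was lost (adjusted p = 0.0514).

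Differences of family shares, in percentage points, depend on the unit by construction. With deposited counts, Dnmt1 was 14.7 in median LP and -0.123 between phases, Dnmt3a -8.31, -7.86 and 0.443, Dnmt3b -6.56 and -6.88 (early and median LP), Tet1 -12.4, -12.5 and -0.160, and Tet3 -10.4 and -9.49. With the most abundant transcript only, Dnmt1 was 11.4 and 11.8, Dnmt3a -2.48, -1.67 and 0.812, Dnmt3b -1.24 between phases and Tet1 -0.156 between phases. Leaving out single libraries gave Dnmt1 -0.2101 (without early LP 3) to 0.513 between phases.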
